A study of Mus musculus with 6 samples.

Results

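The genes described here are 46 genes of DNA replication and mitosis, taken by their symbols from a given list out of the 23238 gene symbols counted. All 46 were found in the count tables. Lung tissue of wild-type (WT) mice was compared between 2 groups: mice given PM and mice given its vehicle, phosphate-buffered saline (PBS), both labelled i.t. for the route. The title calls the exposure chronic, and the labels give no dose, duration, strain or age. Each group has 3 samples, but the tables of PBS replicates 1 and 2 hold the same count in all 23282 entries and both headers name 1 library, so the comparison is between 3 PM libraries and 2 distinct PBS libraries. The labels do not say that the samples are separate animals, so p-values measure the spread between these samples only.

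Total counts were 7410200 to 8798953 in the PM libraries and 7660937 and 8827202 in the PBS libraries. Levels are given in CPM, the usual count scaled to a common library total, here after scaling by TMM (trimmed mean of M values). On this scale 3 counts, the limit that a count of 0 allows, are 0.351 to 0.430 CPM in PM and 0.348 and 0.370 CPM in PBS, covering counting error only. The share of counts from Rn45s, which encodes the precursor of ribosomal RNA, was 23.6%, 25.4% and 15.7% in PM replicates 1, 2 and 3, against 18.2% and 16.3% in PBS replicates 1 and 3. A list of 8 lung epithelial markers, among them the surfactant protein Sftpc, summed to 40696, 43441 and 54988 CPM in PM replicates 1, 2 and 3, against 44867 and 41602 CPM in PBS replicates 1 and 3, so the tissue carried its defining transcripts in every library.

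Cells copy their DNA in S phase with the MCM helicase, the sliding clamp PCNA and enzymes that supply deoxynucleotides, and then divide under cyclin B and CDK1. Transcripts of the mitotic genes are made mainly late in the cycle, after release from repression by the DREAM complex at promoter elements called CHR, with NF-Y bound at CCAAT boxes nearby, whereas many replication genes answer to E2F factors earlier. In healthy adult lung few cells divide, and levels of these transcripts in whole tissue are commonly read as a sign of how many cells are cycling. In a bulk sample more cycling cells and more of these transcripts per cycling cell cannot be told apart.

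The mitotic genes were higher in PM lung than in PBS lung in most of these libraries, with PM replicate 2 highest, PM replicate 1 next and PM replicate 3 nearest to PBS. Of 45 members that passed the filter on low counts, none was called at an adjusted p below 0.05 in either direction (edgeR's quasi-likelihood test over 14057 genes with Benjamini-Hochberg adjustment), where 0.142% of all tested genes were called higher. Of the tested members, 7 (Ccnb1, Ttk, Ndc80, Nuf2, Tpx2, Kif2c and Ect2) passed that filter with both PBS libraries below it, so counts and medians over tested members favour genes high in PM. An unadjusted p under 0.05 was reached by 22 members in the higher direction (7.26% of all tested genes) and by 0 in the lower (6.05%). The median log2 fold over the tested members was 1.32, against 0.01 over all tested genes, and 26 of the 45 had a log2 fold above 1, as did 4.77% of all genes. The fold was positive for 44 of the 45, the exception being Kif20a. DESeq2 called 7 members higher at an adjusted p below 0.05 (1.9% of all genes): Ccnb1, Birc5, Cdca8, Spc25, Tpx2, Nusap1 and Mki67. limma-voom called 0 members (0.0854% of all genes). At an adjusted p below 0.10, edgeR with Benjamini-Hochberg adjustment had 2 members, Cdca8 and Tpx2 (0.896% of all genes).

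The PM libraries differed widely from each other. PM replicate 2 was the highest of the 5 libraries for 42 of the 45 tested members and for 26.5% of all tested genes. The exceptions were Kif2c, highest in PM replicate 1, and Tyms and Kif20a, highest in PM replicate 3. The PM libraries stood in the order 2, 1, 3 for 37 of the 45, as they did for 21.5% of all genes. All PM libraries lay above both PBS libraries for 22 members (15.5% of all genes) and below them for 0 (16.1%). Of all 46 members, 38 were above both PBS libraries in PM replicate 1, 45 in PM replicate 2 and 26 in PM replicate 3, against 37.2%, 39.7% and 36.4% of all tested genes.

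The size of the difference moved with single libraries. Without PM replicate 2 the median log2 fold of the members was 0.65, and without PM replicate 3 it was 1.77. Without PM replicate 3, edgeR called 14 members higher with Benjamini-Hochberg adjustment (1.87% of all genes); without any other library it called 0. The Rn45s share of counts stood in the order 2, 1, 3 as well, with PM replicate 3 below both PBS libraries. With Rn45s and the haemoglobin genes left out of the counts the median log2 fold of the members was 1.32. That step moved the median log2 fold of all tested genes by only -1.4e-05, so it cannot decide the part of RNA or library quality. That part was not tested. Goblet cell markers stood in the same library order: their sum over 7 genes was 363, 1384 and 65.1 CPM in PM replicates 1, 2 and 3, against 6.26 and 5.19 CPM in PBS replicates 1 and 3. The part of these cells in the result was not tested.

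**Figure D1:**
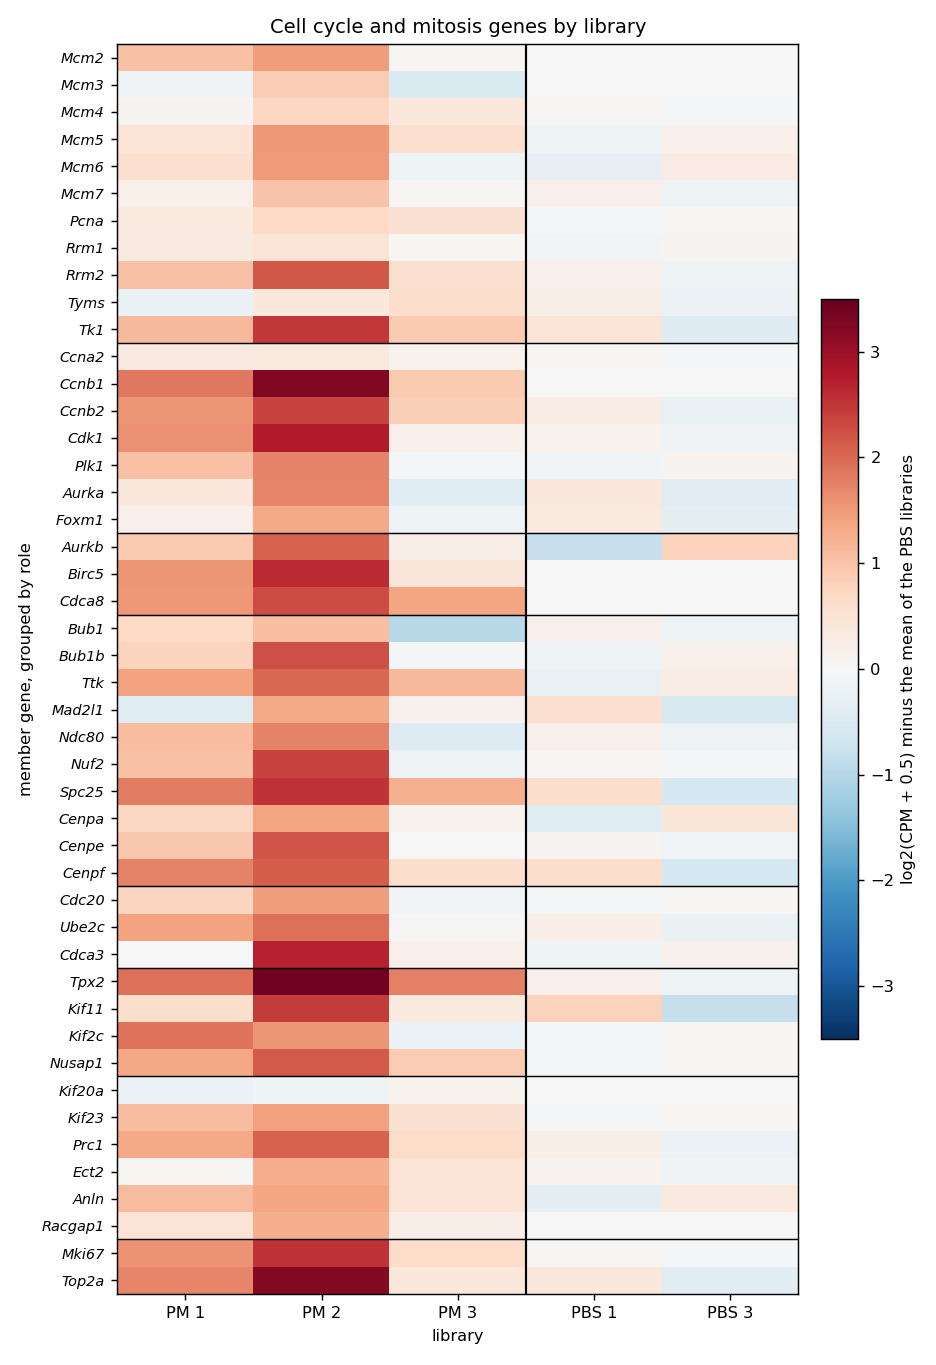
Level of each of the 46 members in each library, as log2(CPM + 0.5) minus the mean of the 2 PBS libraries, with members grouped by role from DNA replication at the top to mitotic chromosome at the bottom. The column of PM replicate 2 is the reddest, and 20 of the 46 members in PM replicate 3 did not exceed both PBS libraries.

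Summed counts stood in the same order. Over the 29 mitotic members whose exons overlap no other counted gene, the sum was 173, 353 and 101 CPM without TMM scaling in PM replicates 1, 2 and 3 (95% exact binomial intervals 165 to 182, 340 to 367 and 93.6 to 108), and 74.6 and 68.8 in PBS replicates 1 and 3 (intervals 69.0 to 80.5 and 63.1 to 74.9). Over the 9 such replication members it was 117, 173 and 116 CPM in PM replicates 1, 2 and 3 (intervals 110 to 125, 164 to 182 and 109 to 124), and 91.4 and 104 in PBS replicates 1 and 3 (intervals 85.2 to 98.0 and 96.5 to 111). The intervals cover counting error only. Every PM library was above both PBS libraries in both sums. The mitotic sum divided by the replication sum was 1.48, 2.05 and 0.865 in PM replicates 1, 2 and 3, against 0.815 and 0.665 in PBS replicates 1 and 3.

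Promoter letters are given as a description of the members, which were chosen as genes of DNA replication and mitosis. CHR and CCAAT elements are known for such genes, and levels in the libraries did not enter the search. The shares therefore have no bearing on the library order. The shares below are over all members with a promoter, replication genes included. RefSeq promoter windows on GRCm38.p6, the assembly also called mm10, were matched for 40 of the 46 members, with 43 promoters in all. Tpx2, Ccna2, Foxm1, Aurkb, Mcm4 and Kif20a had no entry. The motifs searched, on both strands, were CHR as TTTGAA or TTTAAA, the CCAAT box as CCAAT, and E2F as TTTCCCGC or TTTGGCGC; TTTAAA reads the same on both strands, and the capitals of different motifs do not overlap in the promoters printed here. In the 250 bases before the start, CHR letters were in 44.2% of members' promoters and in 25.2% of all 32851 promoters of that length. A CCAAT box was in 79.1% of members' promoters and in 33.8% of all, and 51.2% of members' promoters held at least 2, as did 10.1% of all. E2F letters were in 6.98% of members' promoters and in 1.3% of all. Only the E2F spellings given above were searched, so other forms of the site are not counted.

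When the 50 bases after the start were included, CHR letters were in 74.4% of members' promoters and in 27.6% of all. CHR letters and a CCAAT box together were in 62.8% of members' promoters and in 10.7% of all. A match is a description of these letters and not a measured binding site.

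**Figure D2:**
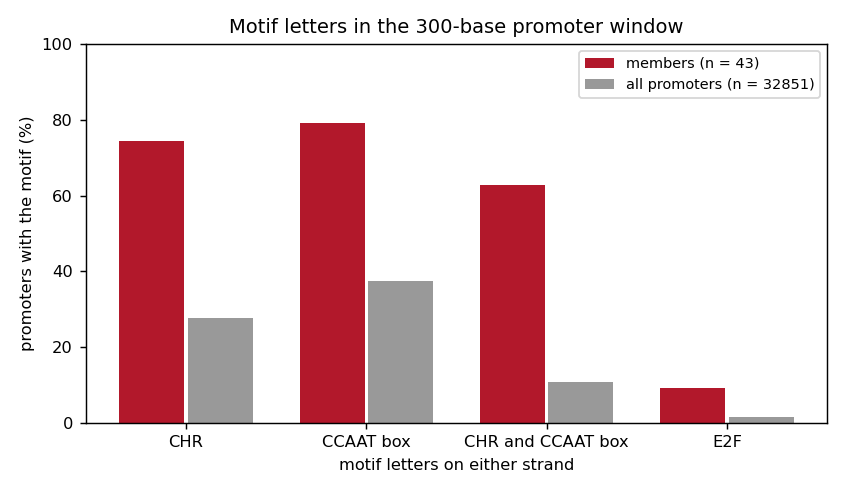
Share of promoters (vertical axis, %) that hold the letters of each motif on either strand in the window from 250 bases before to 50 bases after the annotated start, for the 43 promoters of members and for all 32851 promoters. The bars of the members stand at 74.4% for CHR, 79.1% for the CCAAT box, 62.8% for both and 9.3% for E2F, above the bars of all promoters.

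The promoters shown run from 120 bases before to 20 bases after the annotated start, with motif letters in capitals; ATTGG is CCAAT and TTCAAA is TTTGAA read on the other strand. They are those of Cdca8, Ccnb1, Ccnb2, Cdk1 and Top2a, whose levels carry the mitotic pattern. Also shown are that of Mcm6, a replication gene with E2F letters, and that of Nusap1, which holds none of the letters in this window. The promoters shown lie at chr4:124936898-124937037, chr13:100786467-100786606, chr9:70421535-70421674, chr10:69352893-69353032, chr11:99024170-99024309 and chr1:128359686-128359825 on the minus strand, and at chr2:119618178-119618317 on the plus strand, in GRCm38.p6.
Cdca8: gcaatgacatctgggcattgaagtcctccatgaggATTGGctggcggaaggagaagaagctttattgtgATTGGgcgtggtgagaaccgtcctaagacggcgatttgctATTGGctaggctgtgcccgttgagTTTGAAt
Ccnb1: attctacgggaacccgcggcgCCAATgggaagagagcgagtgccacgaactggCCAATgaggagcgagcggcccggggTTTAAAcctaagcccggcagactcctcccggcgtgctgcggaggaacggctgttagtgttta
Ccnb2: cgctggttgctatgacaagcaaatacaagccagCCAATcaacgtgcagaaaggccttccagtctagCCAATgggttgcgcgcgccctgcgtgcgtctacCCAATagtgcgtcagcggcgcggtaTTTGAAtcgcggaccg
Cdk1: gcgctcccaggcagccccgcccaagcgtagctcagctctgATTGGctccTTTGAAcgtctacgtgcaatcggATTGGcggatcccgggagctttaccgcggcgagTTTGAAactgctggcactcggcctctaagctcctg
Top2a: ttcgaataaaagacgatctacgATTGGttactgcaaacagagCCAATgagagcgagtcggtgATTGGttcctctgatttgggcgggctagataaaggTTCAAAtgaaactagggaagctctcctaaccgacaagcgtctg
Mcm6: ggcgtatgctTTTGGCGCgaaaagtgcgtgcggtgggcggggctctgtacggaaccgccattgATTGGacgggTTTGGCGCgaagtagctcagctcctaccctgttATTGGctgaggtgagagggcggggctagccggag
Nusap1: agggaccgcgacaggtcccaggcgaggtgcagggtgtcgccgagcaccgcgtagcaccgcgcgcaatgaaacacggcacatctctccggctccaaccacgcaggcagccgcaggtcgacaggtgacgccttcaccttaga

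In Ccnb1 the CCAAT boxes begin 99 and 67 bases before the start, 32 bases apart, and the CHR letters 42 bases before it. In Ccnb2 they begin 87, 54 and 21 bases before the start, 33 bases apart each time, and the CHR letters at base 5 of the transcript. In Cdk1 the boxes nearest the start are also 32 bases apart, at 80 and 48 bases before it, with CHR letters 71 and 15 bases before it. In Cdca8 the boxes stand 85, 51 and 11 bases before the start and the CHR letters at base 14 of the transcript. In Mcm6 both E2F matches, 110 and 47 bases before the start, are the form TTTGGCGC, and there are no CHR letters in this window. Mcm6 does not stand for the replication members. In the 250 bases before the start, E2F letters were in 3 of the 43 members' promoters, and Mcm6 alone held 2. Mcm2, Mcm3, Pcna, Rrm1, Rrm2, Tyms and Tk1 held none of the searched E2F spellings there, while Mcm2, Mcm5 and Tk1 held CHR letters.

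The 11 members of DNA replication and nucleotide supply were 0.54 higher in PM at the median on the log2 scale. Of these, 0 were called, 5 reached an unadjusted p under 0.05 in the higher direction (7.26% of all tested genes), and 6 had all PM libraries above both PBS libraries (15.5% of all). Tk1, the thymidine kinase of the S-phase salvage pathway, was at 6.90, 18.1 and 5.80 CPM in PM replicates 1, 2 and 3, against 4.06 and 1.98 CPM in PBS replicates 1 and 3. No PM library overlapped a PBS library, and PM replicate 2 stood well above the others. Its log2 fold was 1.74 ± 0.58 SE (adjusted p = 0.240, edgeR with Benjamini-Hochberg adjustment).

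Pcna, the clamp that holds polymerases on DNA, was at 18.7, 23.6 and 21.1 CPM in PM replicates 1, 2 and 3, against 14.1 and 14.9 CPM in PBS replicates 1 and 3. The groups did not overlap and the PM libraries were close together, with a log2 fold of 0.54 ± 0.19 SE (adjusted p = 0.249). Rrm2, the small subunit of ribonucleotide reductase that is made in S phase, was at 3.51, 8.46 and 2.40 CPM in PM replicates 1, 2 and 3, against 1.74 and 1.23 CPM in PBS replicates 1 and 3 (log2 fold 1.66 ± 0.61 SE, adjusted p = 0.260). Its partner Rrm1, the large subunit, had a log2 fold of 0.28 ± 0.19 SE, and its groups overlapped.

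The MCM subunits, which together form the replicative helicase, did not all stand alike. Mcm2 and Mcm5 had log2 folds of 0.99 and 0.96, whereas Mcm3, Mcm4 and Mcm7 had folds of 0.23, 0.43 and 0.46 and Mcm6 of 0.80. Mcm3 was at 17.8, 36.4 and 13.7 CPM in PM replicates 1, 2 and 3, against 19.1 and 19.4 CPM in PBS replicates 1 and 3, so that PM replicate 2 alone was above PBS. Tyms, thymidylate synthase, had a log2 fold of 0.30 ± 0.39 SE, with its highest level, 6.81 CPM, in PM replicate 3.

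The 7 cyclins, kinases and their transcription factor, which drive entry into mitosis, stood 1.16 higher in PM at the median on the log2 scale, and 0 were called. Ccnb1, cyclin B1, had the largest fold of the members, 3.32 ± 0.93 SE (adjusted p = 0.148, edgeR with Benjamini-Hochberg adjustment). It was at 2.57, 7.60 and 1.13 CPM in PM replicates 1, 2 and 3, against 0.348 and 0.370 CPM in PBS replicates 1 and 3. Both PBS libraries held 3 counts of it, so the pooled ratio of PM to PBS, 9.98, has a 95% counting interval of 4.398 to 27.97. Every PM library was above both PBS libraries.

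Ccnb2, cyclin B2, was at 4.67, 8.74 and 2.65 CPM in PM replicates 1, 2 and 3, against 1.62 and 0.988 CPM in PBS replicates 1 and 3 (log2 fold 2.01 ± 0.59 SE, adjusted p = 0.158). Cdk1, the kinase that both B cyclins activate, was at 7.36, 17.1 and 2.40 CPM in PM replicates 1, 2 and 3, against 2.32 and 1.85 CPM in PBS replicates 1 and 3. PM replicate 3 was barely above PBS replicate 1, and the log2 fold was 2.08 ± 0.81 SE (adjusted p = 0.336). Plk1, the polo-like kinase of mitotic entry, and Aurka, the kinase of spindle poles, had folds of 1.16 and 0.90, with PM replicate 3 inside or below the PBS range.

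Foxm1, the transcription factor that activates late cell cycle genes, was itself at 2.34, 5.73 and 1.77 CPM in PM replicates 1, 2 and 3, against 2.67 and 1.48 CPM in PBS replicates 1 and 3, so the groups overlapped (log2 fold 0.64 ± 0.61 SE). Ccna2, cyclin A2, was at 25.8, 26.5 and 22.7 CPM in PM replicates 1, 2 and 3, against 21.2 and 20.3 CPM in PBS replicates 1 and 3, a log2 fold of 0.27 ± 0.17 SE. Exons of Ccna2 share 378 bases with Exosc9 on the opposite strand, so its count may hold reads of that gene.

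The chromosomal passenger complex corrects faulty attachments of chromosomes to the spindle and later guides cytokinesis. The median log2 fold of its 3 members was 1.87, and 0 were called. Cdca8, the subunit borealin, had the smallest p of all members. It was at 6.54, 11.6 and 5.93 CPM in PM replicates 1, 2 and 3, against 1.97 and 1.98 CPM in PBS replicates 1 and 3, or 8.03 ± 3.12 CPM in PM (SD, n = 3) and 1.97 ± 0.00398 CPM in PBS (SD, n = 2). The PBS libraries were nearly equal, PM replicates 1 and 3 lay close together above them, and PM replicate 2 was highest. Its log2 fold was 2.01 ± 0.43 SE (adjusted p = 0.0651, edgeR with Benjamini-Hochberg adjustment; 0.00381 to 0.484 over the alternatives), and the gene lies on chromosome 4 at 124918465 to 124936917 in GRCm38.

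Birc5, survivin, was at 15.3, 32.2 and 6.68 CPM in PM replicates 1, 2 and 3, against 4.87 and 4.94 CPM in PBS replicates 1 and 3. The PBS libraries were nearly equal and the PM libraries spread widely above them (log2 fold 1.87 ± 0.72 SE, adjusted p = 0.363). Aurkb, the kinase of the complex, was at 1.52, 4.01 and 0.757 CPM in PM replicates 1, 2 and 3, against 0.116 and 1.36 CPM in PBS replicates 1 and 3. PBS replicate 1 held 1 count of it and the groups overlapped (log2 fold 1.49 ± 0.97 SE, adjusted p = 0.547), and the pooled ratio of 2.79 has a counting interval of 1.46 to 5.78.

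**Figure D3:**
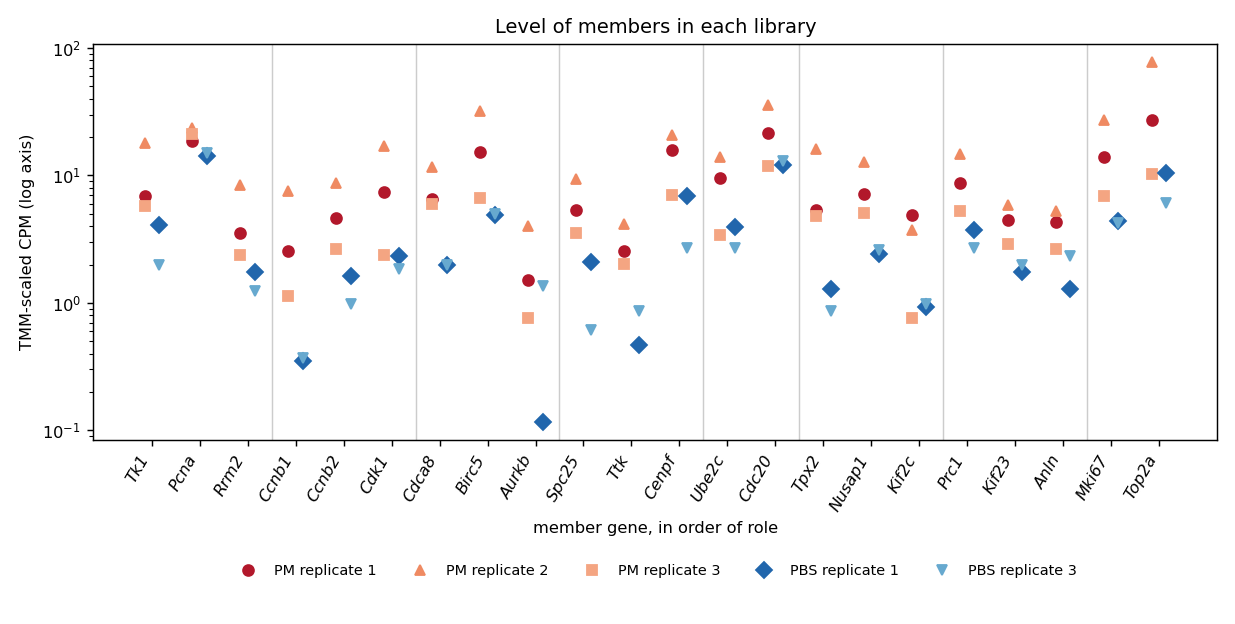
Level in TMM-scaled CPM (log axis) of the members with the smallest p in each role, 3 per role where that many were tested, with a point for each PM library and, to its right, each PBS library. PM replicate 2 is the topmost point for every gene shown but Kif2c, and for Ccnb1, Cdca8 and Tpx2 all PM points lie above both PBS points.

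Kinetochore and spindle checkpoint genes, which attach chromosomes to microtubules and hold anaphase until all are attached, numbered 10 and had a median fold of 1.43 on the log2 scale. None was called (0 of 10), and all 10 were highest in PM replicate 2. Spc25, a subunit of the NDC80 complex, was at 5.38, 9.32 and 3.53 CPM in PM replicates 1, 2 and 3, against 2.09 and 0.617 CPM in PBS replicates 1 and 3 (log2 fold 2.14 ± 0.60 SE, adjusted p = 0.148, edgeR with Benjamini-Hochberg adjustment). Ttk, the checkpoint kinase MPS1, was at 2.57, 4.16 and 2.02 CPM in PM replicates 1, 2 and 3, against 0.464 and 0.864 CPM in PBS replicates 1 and 3 (2.11 ± 0.67 SE, adjusted p = 0.190). For both genes every PM library was above both PBS libraries.

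Cenpf, a large protein of the outer kinetochore, was at 15.9, 20.9 and 7.06 CPM in PM replicates 1, 2 and 3, against 6.95 and 2.72 CPM in PBS replicates 1 and 3. PM replicate 3 was level with PBS replicate 1, and the log2 fold was 1.58 ± 0.56 SE (adjusted p = 0.298). The other NDC80 subunits Ndc80 and Nuf2 had folds of 1.32 and 1.87, and each had PM replicate 3 at 0.631 CPM, below both PBS libraries. Bub1, a checkpoint kinase, was likewise lowest in PM replicate 3, at 0.504 CPM. Its relative Bub1b had a log2 fold of 1.47 ± 0.73 SE.

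Mad2l1, the checkpoint protein MAD2, had a log2 fold of 0.49 ± 0.66 SE and overlapping groups. Cenpa, the centromeric histone variant, and Cenpe, a kinetochore motor, had folds of 0.82 and 1.38. Cenpe was at 11.6, 28.7 and 5.93 CPM in PM replicates 1, 2 and 3, against 6.26 and 5.43 CPM in PBS replicates 1 and 3, so PM replicate 3 lay within the PBS range.

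The members that start anaphase work with the ubiquitin ligase APC/C. Cdc20, its mitotic activator, was at 21.6, 35.4 and 11.9 CPM in PM replicates 1, 2 and 3, against 12.2 and 13.1 CPM in PBS replicates 1 and 3 (log2 fold 0.86 ± 0.43 SE, adjusted p = 0.462). Ube2c, the conjugating enzyme of the same ligase, was at 9.47, 13.9 and 3.40 CPM in PM replicates 1, 2 and 3, against 3.94 and 2.72 CPM in PBS replicates 1 and 3 (1.41 ± 0.55 SE, adjusted p = 0.310). In both, PM replicate 3 was within or below the PBS range while the other PM libraries were above it. Cdca3, which helps remove the mitosis inhibitor WEE1, did not pass the filter: it was at 0.935, 8.89 and 1.13 CPM in PM replicates 1, 2 and 3, against 0.811 and 1.11 CPM in PBS replicates 1 and 3, high in PM replicate 2 alone.

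The 4 spindle genes stood 1.70 higher in PM at the median on the log2 scale, with 0 called. Tpx2, which activates Aurora A and nucleates spindle microtubules, was at 5.38, 16.1 and 4.79 CPM in PM replicates 1, 2 and 3, against 1.27 and 0.864 CPM in PBS replicates 1 and 3. All PM libraries were above both PBS libraries, and the log2 fold was 2.997 ± 0.65 SE (adjusted p = 0.0885, edgeR with Benjamini-Hochberg adjustment; 0.000570 to 0.616 over the alternatives). Tpx2 lies on chromosome 2 at 152847964 to 152895321 in GRCm38.

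Nusap1, which bundles spindle microtubules, was at 7.13, 12.8 and 5.04 CPM in PM replicates 1, 2 and 3, against 2.43 and 2.59 CPM in PBS replicates 1 and 3. Its groups did not overlap (log2 fold 1.71 ± 0.45 SE, adjusted p = 0.123). Kif2c, a kinesin that shortens microtubules, was at 4.91, 3.73 and 0.757 CPM in PM replicates 1, 2 and 3, against 0.927 and 0.988 CPM in PBS replicates 1 and 3, so that PM replicate 3 was the lowest of all (log2 fold 1.70 ± 0.77 SE, adjusted p = 0.371). Kif11, the motor that pushes spindle poles apart, had 12 counts in PBS replicate 1 and 1 in PBS replicate 3, and a log2 fold of 1.66 ± 1.05 SE.

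For the 6 genes of the spindle midzone and cytokinesis the median log2 fold was 1.03, with 0 called. Prc1, which crosslinks midzone microtubules, was at 8.65, 14.8 and 5.30 CPM in PM replicates 1, 2 and 3, against 3.71 and 2.72 CPM in PBS replicates 1 and 3 (log2 fold 1.56 ± 0.45 SE, adjusted p = 0.152, edgeR with Benjamini-Hochberg adjustment). Kif23, the motor of centralspindlin, was at 4.44, 5.88 and 2.90 CPM in PM replicates 1, 2 and 3, against 1.74 and 1.98 CPM in PBS replicates 1 and 3 (1.24 ± 0.49 SE, adjusted p = 0.299). Its partner Racgap1 had a log2 fold of 0.80 ± 0.41 SE. For all 3 of these genes every PM library was above both PBS libraries.

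Anln, the scaffold protein anillin of the contractile ring, was at 4.32, 5.30 and 2.65 CPM in PM replicates 1, 2 and 3, against 1.27 and 2.35 CPM in PBS replicates 1 and 3 (log2 fold 1.17 ± 0.52 SE, adjusted p = 0.361). Ect2, the exchange factor that switches on RhoA at the cleavage site, had a log2 fold of 0.88 ± 0.68 SE.

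Kif20a, the midzone motor MKLP2, was the member that stood apart. It was at 18.1, 19.1 and 23.2 CPM in PM replicates 1, 2 and 3, against 21.4 and 20.9 CPM in PBS replicates 1 and 3, with a log2 fold of -0.07 ± 0.18 SE (adjusted p = 0.915). Its exons share 1271 bases, 31.8% of their length, with Cdc23 on the opposite strand. Without known use of strand in counting, reads of Cdc23 and of Kif20a within these shared bases cannot be told apart. Per kilobase of exon the PBS mean of Kif20a was 5.29 CPM, against 0.546 for Kif23 and 0.157 for Kif11. It was 9.58 for Pcna and 6.35 for Mcm3, whose exons overlap no other counted gene. The part of Cdc23 reads in the level of Kif20a was not tested.

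Of the 46 members, 8 share exon sequence with another gene counted in these files: Kif20a, Ccna2, Mcm7, Tk1, Cdc20, Ube2c, Nusap1 and Prc1. The log2 folds of Kif20a, Ccna2 and Mcm7 were -0.07, 0.27 and 0.46. Those of Tk1, Nusap1, Prc1, Ube2c and Cdc20 were 1.74, 1.71, 1.56, 1.41 and 0.86. The partners of Ube2c, Nusap1 and Prc1, which are Tnnc2, Oip5 and Rccd1, held 17, 21 and 124 counts over the 5 libraries. Those of the other 5 held more: Elovl1, which overlaps Cdc20, held 12561 counts, Cops6 and Ap4m1, which overlap Mcm7, held 1855 and 374, Exosc9 (Ccna2) held 974, Cdc23 (Kif20a) held 865 and Afmid (Tk1) held 432. Leaving out all 8 members left the median log2 fold at 1.32.

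Mki67, the proliferation marker Ki-67 that coats mitotic chromosomes, was at 13.9, 27.4 and 6.94 CPM in PM replicates 1, 2 and 3, against 4.40 and 4.20 CPM in PBS replicates 1 and 3. Its groups did not overlap, and the log2 fold was 1.89 ± 0.58 SE (adjusted p = 0.236, edgeR with Benjamini-Hochberg adjustment). Top2a, the topoisomerase that untangles sister chromatids, was at 27.2, 77.7 and 10.3 CPM in PM replicates 1, 2 and 3, against 10.4 and 6.05 CPM in PBS replicates 1 and 3. PM replicate 3 was level with PBS replicate 1, and the log2 fold was 2.21 ± 1.14 SE (adjusted p = 0.527).

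**Figure D4:**
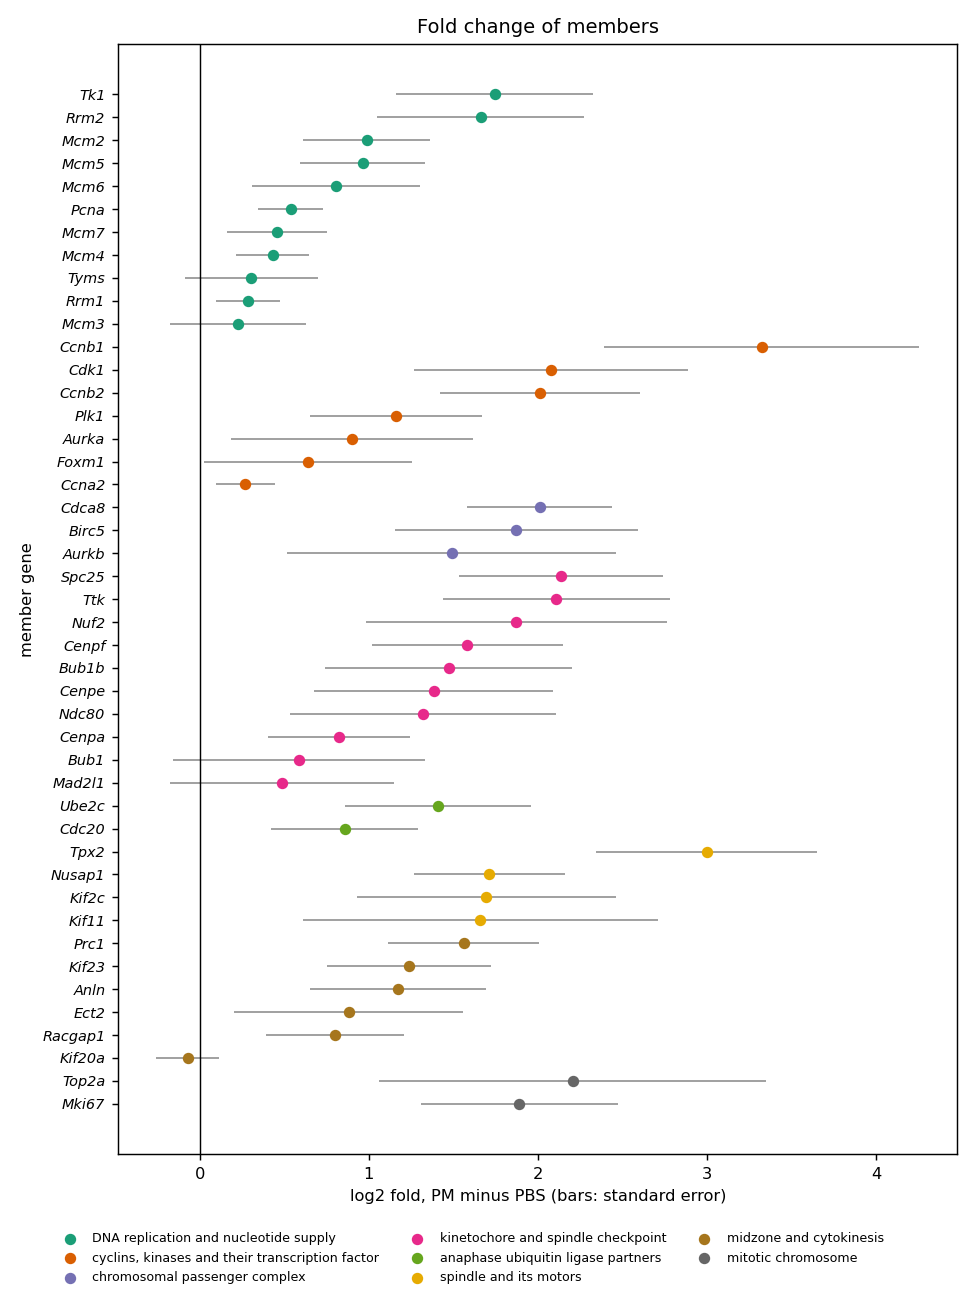
Log2 fold of each tested member (PM minus PBS, horizontal axis), with bars of 1 standard error and colours for roles. Folds run from -0.07 for Kif20a to 3.32 for Ccnb1, and most replication genes lie nearer to 0 than most mitotic genes.

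Per kilobase of exon, Mcm7, Pcna and Cdc20 had the highest mean levels among the members in both groups: 14.9, 13.9 and 12.8 CPM per kilobase in PM and 10.8, 9.58 and 7.04 in PBS. Ccnb1 had the lowest mean in PBS, 0.144 CPM per kilobase, against 1.51 in PM. Top2a was at 7.36 CPM per kilobase in PM and 1.58 in PBS. The levels of Mcm7 and Cdc20, whose exons overlap Cops6 and Elovl1, may hold reads of those genes, so their place in this order is uncertain. Levels rest on few reads for many members.

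Cell cycle genes that are not members were grouped in 4 lists. Among other mitotic genes 40 of 48 were tested, the median log2 fold was 1.01 (0.45 without PM replicate 2), and an unadjusted p under 0.05 was reached by 16 in the higher direction (7.26% of all tested genes) and 0 in the lower (6.05%). The list's median difference from the PBS mean in log2(CPM + 0.5) was 0.77 in PM replicate 1, 1.28 in PM replicate 2 and 0.16 in PM replicate 3. Cep55, which acts in the final cut between daughter cells, was at 6.19, 8.03 and 2.90 CPM in PM replicates 1, 2 and 3, against 1.39 and 1.48 CPM in PBS replicates 1 and 3 (log2 fold 1.98 ± 0.53 SE, adjusted p = 0.131, edgeR with Benjamini-Hochberg adjustment). Cks1b, a CDK subunit, and Nek2, a centrosomal kinase, had folds of 0.95 and 1.32. Among the 16, Ncapg, Hmmr, Sgol1, Cdca2 and Pbk passed the filter on low counts, 1.31 CPM, with both PBS libraries below it. The count and median of this list therefore favour genes high in PM.

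Among other replication genes 30 of 31 were tested, the median log2 fold was 0.48 (0.19 without PM replicate 2), and an unadjusted p under 0.05 was reached by 4 in the higher direction (7.26% of all tested genes) and 0 in the lower (6.05%). Mcm10, which helps assemble the replication fork, was at 1.99, 2.01 and 1.89 CPM in PM replicates 1, 2 and 3, against 0.464 and 0.370 CPM in PBS replicates 1 and 3. The PM libraries of this gene were nearly equal, PM replicate 3 included (log2 fold 2.19 ± 0.72 SE, adjusted p = 0.203). Uhrf1, which brings the maintenance DNA methyltransferase to new DNA, was at 3.74, 4.44 and 3.03 CPM in PM replicates 1, 2 and 3, against 1.04 and 0.864 CPM in PBS replicates 1 and 3 (1.95 ± 0.55 SE, adjusted p = 0.147). Rfc5, a clamp loader subunit, had a log2 fold of 0.81 ± 0.31 SE. Among the 4, Mcm10 and Uhrf1 passed the filter on low counts, 1.31 CPM, with both PBS libraries below it. The count and median of this list therefore also favour genes high in PM. The level of Mcm10 in PBS replicate 3, 0.370 CPM, is that of 3 counts.

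Of the cyclins, CDKs, E2F and RB genes of the G1 phase 24 of 26 were tested; their median log2 fold was 0.19, and 1 gene in each direction reached an unadjusted p under 0.05 (7.26% of all tested genes higher and 6.05% lower). E2f1, an activating E2F, had a log2 fold of 0.49 ± 0.22 SE, and E2f4, a repressive E2F of the DREAM complex, of -0.45 ± 0.19 SE. Ccnd1, cyclin D1, was at 480, 645 and 380 CPM in PM replicates 1, 2 and 3, against 392 and 352 CPM in PBS replicates 1 and 3, so its groups overlapped (0.43 ± 0.20 SE).

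Of the CDK inhibitors and p53 target genes 17 of 18 were tested; their median log2 fold was -0.05, and an unadjusted p under 0.05 was reached by 0 in the higher direction (7.26% of all tested genes) and 2 in the lower (6.05%). Cdkn1b, the inhibitor p27 that holds cells out of the cycle, was at 81.7, 123 and 126 CPM in PM replicates 1, 2 and 3, against 172 and 197 CPM in PBS replicates 1 and 3. Every PM library was below both PBS libraries, and PM replicate 1 was lowest. Its log2 fold was -0.74 ± 0.18 SE (adjusted p = 0.120, edgeR with Benjamini-Hochberg adjustment). Cdkn2b, the inhibitor p15, had a log2 fold of -0.60 ± 0.22 SE and Cdkn1c, the inhibitor p57, of -0.47 ± 0.22 SE. Of the 4 lists, 0 genes were called by edgeR over all genes, and DESeq2 called 2, Cep55 higher and Cdkn1b lower. Of all 14057 tested genes, edgeR called 20 higher and 12 lower, and DESeq2 called 267 higher (1.9%) and 115 lower.

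**Figure D5:**
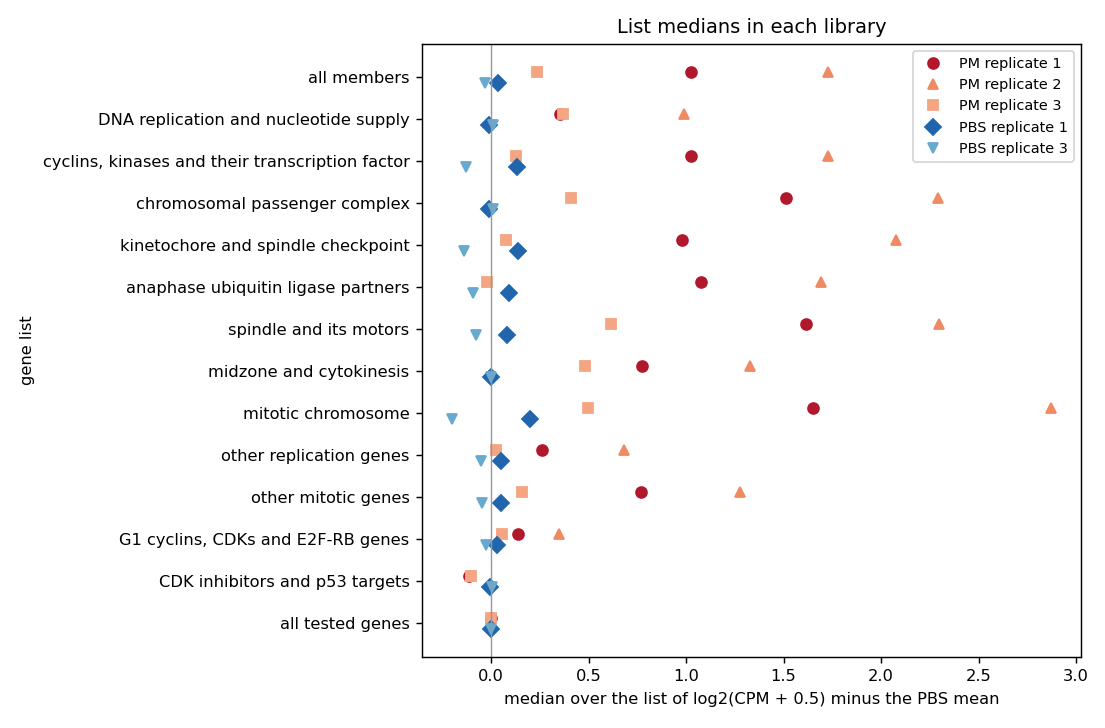
Median over each list of log2(CPM + 0.5) minus the PBS mean (horizontal axis), for each PM library and, below it, each PBS library, for all members, their roles, the other cell cycle lists and all tested genes. For all members the medians are 1.02, 1.73 and 0.236 in PM replicates 1, 2 and 3, whereas those of the CDK inhibitor list lie between -0.115 and -0.102 and those of all tested genes lie at about 0.

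Markers of cell types that could carry cycling cells, or change in number, were read beside these values. Interstitial and monocyte-derived macrophage markers summed to 402, 605 and 325 CPM in PM replicates 1, 2 and 3, against 222 and 188 CPM in PBS replicates 1 and 3. All PM libraries lay above both PBS libraries for 8 of these 9 markers (15.5% of all tested genes), and 7 were highest in PM replicate 2 (26.5% of all). Goblet cell markers without Clca1, the most abundant of them, summed to 74.3, 223 and 31.1 CPM in PM replicates 1, 2 and 3, against 6.26 and 5.19 CPM in PBS replicates 1 and 3. Both lists stood in the order 2, 1, 3, and their part in the result was not tested.

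Multiciliated cell markers summed to 267, 299 and 347 CPM in PM replicates 1, 2 and 3, against 294 and 272 CPM in PBS replicates 1 and 3, but most of that sum was Tppp3. Without Tppp3 the sum was 52.8, 90.3 and 79.3 CPM in PM replicates 1, 2 and 3, against 33.7 and 45.7 CPM in PBS replicates 1 and 3. Foxj1, Dnah5 and Ccno, 3 of the 4 tested markers, were highest in PM replicate 2 (26.5% of all tested genes). The median log2 fold of the 4 was 0.88. The part of these cells in the result was not tested either.

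Alveolar macrophage markers summed to 1190, 1444 and 968 CPM in PM replicates 1, 2 and 3, against 294 and 521 CPM in PBS replicates 1 and 3, where the order of the PM libraries came from Chil3. Without Chil3 the sum was 599, 431 and 516 CPM in PM replicates 1, 2 and 3, against 276 and 394 CPM in PBS replicates 1 and 3. All PM libraries lay above both PBS libraries for 5 of the 8 tested markers (15.5% of all tested genes). The highest library was PM replicate 2 for 2 of the 8 (26.5% of all). The list was thus higher in PM without the library order of the members.

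Fibroblast and smooth muscle markers summed to 1699, 1964 and 1126 CPM in PM replicates 1, 2 and 3, against 1605 and 1473 CPM in PBS replicates 1 and 3, in the order 2, 1, 3 with PM replicate 3 below PBS. Erythroid precursor markers summed to 104, 134 and 84.4 CPM in PM replicates 1, 2 and 3, against 167 and 101 CPM in PBS replicates 1 and 3, also in that order but with PBS replicate 1 highest. Without Tfrc, the most abundant of them, the sum was 49.7, 50.2 and 14.2 CPM in PM replicates 1, 2 and 3. In PBS replicates 1 and 3 it was 114 and 44.1 CPM. Gene by gene, the order was found in 1 of the 4 tested erythroid markers (21.5% of all tested genes). Endothelial markers summed to 1379, 1196 and 1326 CPM in PM replicates 1, 2 and 3, against 1631 and 1712 CPM in PBS replicates 1 and 3. For 5 of the 6 endothelial markers all PM libraries lay below both PBS libraries (16.1% of all tested genes). The part of these cells in the result was not tested.

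Among the sums for lymphocytes and neutrophils the order 2, 1, 3 was found for plasma cells alone, with PM replicates 1 and 2 nearly equal. Gene by gene, that order was found in 5 of 8 tested T cell markers and 2 of 7 tested plasma cell markers. It was found in 1 of 5 NK cell and 1 of 6 neutrophil markers, and in 21.5% of all tested genes. T cell markers summed to 122, 120 and 78.7 CPM in PM replicates 1, 2 and 3, against 75.7 and 91.6 CPM in PBS replicates 1 and 3. Plasma cell markers summed to 342, 345 and 306 CPM in PM replicates 1, 2 and 3, against 230 and 242 CPM in PBS replicates 1 and 3. Without Xbp1, the most abundant of them, the sum was 240, 215 and 186 CPM in PM replicates 1, 2 and 3. In PBS replicates 1 and 3 it was 135 and 132 CPM. Neutrophil markers were highest in PM replicate 3, with sums of 267, 216 and 911 CPM in PM replicates 1, 2 and 3, against 263 and 127 CPM in PBS replicates 1 and 3. NK cell markers summed to 39.9, 35.3 and 17.9 CPM in PM replicates 1, 2 and 3, against 52.96 and 59.8 CPM in PBS replicates 1 and 3. Without Gzma, the most abundant of them, the sum was 21.2, 21.9 and 8.83 CPM in PM replicates 1, 2 and 3. In PBS replicates 1 and 3 it was 27.2 and 27.3 CPM. What these cells contribute to the result was not tested.

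B cell markers summed to 100, 49.9 and 42.6 CPM in PM replicates 1, 2 and 3, against 72.8 and 52.1 CPM in PBS replicates 1 and 3. Germinal centre B cell markers summed to 89.6, 78.5 and 95.3 CPM in PM replicates 1, 2 and 3, against 98.3 and 111 CPM in PBS replicates 1 and 3. Thymocyte markers summed to 15.9, 9.89 and 12.2 CPM in PM replicates 1, 2 and 3, against 11.1 and 9.01 CPM in PBS replicates 1 and 3, with Rag2 at 0 in all libraries.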

How the data were processed

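RNA sequencing of lung tissue was analysed for 6 samples in 2 groups. Per the labels' protocols, the easy-BLUE kit served for RNA and the SENSE mRNA-Seq kit of Lexogen for libraries. Per the submitters' processing notes, TopHat, Cufflinks and mm10 were used; not given in the sources used here are versions, the counting program, the annotation and strand use. The deposited values are raw counts per gene symbol, not normalized by the authors. The members and lists were chosen with earlier results of these data known.

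Identical PBS tables entered once, a blank row was left out, and for 79 entries sharing a symbol that with the highest total was kept (0.0246% of counts set aside). Genes were filtered with filterByExpr, scaled by TMM and tested across 14057 genes with edgeR 4.0.16 in R 4.3.3 (quasi-likelihood, robust, two-sided, Benjamini-Hochberg). SE is the log2 fold divided by the square root of F. DESeq2 1.42.0, limma-voom (limma 3.58.1), other filters and scalings, each library left out, a replicate block, all 6 tables and counts without Rn45s and haemoglobin were alternatives. The procedure was tested on simulated counts. Per-library list values use a pseudocount of 0.5. Exon overlaps and lengths come from GENCODE M21; coordinates and promoters from RefSeq GRCm38.p6. By rule, up to 3 members per role and 3 genes per other list with the smallest p were described in full. Depth, 7410200 to 8827202 counts, limits genes with few reads.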

Additional observations from a re-analysis of the deposited data

How the results depend on the processing

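The number of members called depended on the processing. As reported it was 0, where 0.142% of all tested genes were called higher. DESeq2 called 7 (1.9% of all), and 2 were called at an adjusted p below 0.10 (0.896% of all). With no filter on low counts it was 3, and with all 6 tables as deposited 4, beside 275 and 635 of all genes in either direction. The fit on all 6 tables enters 1 PBS library as 2 samples, so its calls rest on too small a spread. Without PM replicate 3 the number of members called was 14 (1.87% of all), and without PM replicate 1 or 2 it was 0. Members higher at an unadjusted p below 0.05 numbered 22 as reported, 11 by limma-voom, and 9 to 31 when a library was left out. The median log2 fold of the members stayed above 0 in every alternative, at 0.59 to 1.77. All genes called numbered 32, against 51 by total counts, 275 with no filter, 81 with at least 1 CPM in 2 libraries, 382 by DESeq2, 635 with all 6 tables, and 1 to 427 when a library was left out. In the other cell cycle lists, 0 genes were called as reported, 1 with no filter, 2 by DESeq2, 6 with all 6 tables and 0 to 6 when a library was left out; the cause was not tested.

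Deviations from the group mean in same-numbered samples had a correlation across 11331 genes of -0.0162 for number 1 and 0.124 for number 3. Between PM replicate 2 and PBS replicate 1 it was 0.131. With 2 PBS libraries the deviations of the PBS group mirror each other, so this check cannot decide whether samples are paired. The main fit did not take the numbers as pairs. With the replicate block, in which PM replicate 2 has no partner, 4 members, 353 genes in all and 1 gene of the other lists were called. The CDK inhibitor median was -0.0338 with the block, -0.0836 by total counts, -0.0984 with no filter, -0.096 with at least 1 CPM, -0.0925 with all 6 tables and -0.1408 to -0.0577 without single libraries; the median of other mitotic genes was 0.4475 to 1.296 without single libraries. CHR letters were in 74.4% of members' promoters in the 300-base window and 44.2% in 250 bases. With the block the log2 fold turned negative for Mcm3 (-0.30), Aurka (-0.0378), Bub1 (-0.10) and Mad2l1 (-0.20). Without single libraries the folds ran from -0.29 to 0.4843 for Mcm3, -0.0249 to 1.425 for Aurka, -0.0161 to 1.125 for Foxm1, -0.27 to 1.32 for Mad2l1 and -0.1863 to 0.0013 for Kif20a, turning negative without PM replicate 2 (and for Mad2l1 also without PBS replicate 3, -0.03) and, for Kif20a, positive without PM replicate 1. Of 664 combinations of a member and an alternative, 10 turned sign, 32 passed the threshold and 622 stood as reported. Fits that leave 1 PBS library assume that it varies like the other group.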
